A study of Drosophila melanogaster with 3 samples.

Results

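Cytosolic ribosomal protein genes were taken as the protein-coding genes on the major chromosome arms of Drosophila melanogaster whose symbols begin with RpL or RpS and a number, or with RpLP and a number. There were 92 of them among 13945 protein-coding genes, 54 for the large subunit and 38 for the small subunit. The rule works on symbols, so it also takes in RpL7-like, RpL24-like and RpLP0-like, which resemble yeast ribosome assembly factors, and it leaves out the ribosomal proteins sta and Rack1. Insensitive (Insv) was mapped on chromatin by chromatin immunoprecipitation and sequencing (ChIP-seq) with an anti-GFP antibody. The material was whole embryos of both sexes, aged 0 to 24 h, from a transgenic line in which green fluorescent protein (GFP) is joined to the C-terminal end of Insv. The 3 biological replicates came from this single line and formed 1 group with no second condition, so genes were compared with other genes. The files hold no read numbers, so the depth behind each list is unknown, and the spread over the 3 replicates is the error given.

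Ribosomal proteins surround the ribosomal RNA in the large and small subunits of the ribosome, and dividing cells need them in near equal amounts. In flies their promoters are known for a pyrimidine-rich start, the TCT initiator, in place of the usual initiator, and for sites of the promoter factors DREF and M1BP. Insv is a nuclear protein with a DNA-binding BEN domain, known as a corepressor in the Notch pathway and for binding the palindrome CCAATTGG.

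A gene was called bound if the summit of a reproducible peak lay within 500 bp of any of its annotated transcription start sites (TSSs). Reproducible peaks were the 4753 in the authors' list that passed the irreproducible discovery rate (IDR) test. Most ribosomal protein genes were bound, at both subunits, with the summit usually just upstream of the TSS. Sequence under 6 of these summits is shown on the dm6 build, RefSeq genome sequence, 5′ to 3′ on the strand of the gene, because these windows hold the promoter motifs that the results below count. Each runs 50 bp to each side of the summit. Capitals mark the DREF sequence TATCGATA in the windows of RpL26 (chr3L:18898777-18898877, plus strand), RpL34a (chr3R:26059281-26059381, minus strand), RpS25 (chr3R:11216297-11216397, minus strand) and RpS10b (chrX:19597954-19598054, plus strand). They mark the M1BP sequence GGTCACAC in the window of RpL6 (chr3R:31596201-31596301, minus strand). In the window of RpL8 (chr3L:2586954-2587054, plus strand) they mark the Insv core CCAATTGG.
RpL26: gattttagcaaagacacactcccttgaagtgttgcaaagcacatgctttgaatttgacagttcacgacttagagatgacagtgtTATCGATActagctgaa
RpL34a: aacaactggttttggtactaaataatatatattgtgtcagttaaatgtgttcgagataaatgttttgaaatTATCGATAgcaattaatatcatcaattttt
RpS25: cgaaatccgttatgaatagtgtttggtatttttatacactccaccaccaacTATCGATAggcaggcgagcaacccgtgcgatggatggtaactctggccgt
RpS10b: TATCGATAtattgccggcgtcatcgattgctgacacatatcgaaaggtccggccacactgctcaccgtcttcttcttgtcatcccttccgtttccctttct
RpL6: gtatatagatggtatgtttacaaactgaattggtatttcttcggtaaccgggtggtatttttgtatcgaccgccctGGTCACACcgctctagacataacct
RpL8: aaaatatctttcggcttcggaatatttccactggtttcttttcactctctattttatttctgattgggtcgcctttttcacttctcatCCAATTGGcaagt

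The first comparison asked how many ribosomal protein genes carried an Insv summit. Of the 92 ribosomal protein genes, 72 were bound (78.3%, Wilson 95% interval 68.8 to 85.5%), against 3384 of 13853 other protein-coding genes (24.4%). The share over all protein-coding genes was 24.8%. These intervals cover counting error only. For the replicates, the 4753 strongest regions of each replicate's own list were used, ranked by the peak caller's signal value. Replicate 1 had 70 ribosomal protein genes bound, replicate 2 had 72 and replicate 3 had 68. The share averaged 76.1% ± 2.17 (SD, n = 3 replicates) for ribosomal protein genes, against 23.5% ± 1.61 for other protein-coding genes. The share over all protein-coding genes was 25.1% in replicate 1, 24.4% in replicate 2 and 22.0% in replicate 3. The difference between ribosomal protein genes and other genes was 51.3 percentage points in replicate 1, 54.2 in replicate 2 and 52.2 in replicate 3. This was far larger than its spread (mean 52.6 ± 1.46), and an exact sign-flip permutation test over the 3 replicates gave a two-sided p of 0.25, the smallest that 3 replicates allow.

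The large and small subunits did not differ beyond the spread between replicates. Of the large-subunit genes, 42 of 54 were bound (77.8%, interval 65.1 to 86.8%), against 30 of 38 small-subunit genes (78.9%, interval 63.7 to 88.9%). In the replicates, the share averaged 75.3% ± 1.07 for the large subunit and 77.2% ± 4.02 for the small subunit (SD, n = 3). The difference, large minus small, was -0.39 percentage points in replicate 1, -5.65 in replicate 2 and 0.39 in replicate 3 (mean -1.88 ± 3.29, exact permutation p = 0.75, two-sided). Its sign changed with the replicate left out and with the peak threshold. By chromosome arm, 14 of 19 genes were bound on 2L, 15 of 21 on 2R, 11 of 14 on 3L, 19 of 23 on 3R and 12 of 14 on X, as was RpS3A, the single ribosomal protein gene on chromosome 4. The share of all protein-coding genes bound on each arm is not given here, so these counts do not compare the arms.

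**Figure D1:**
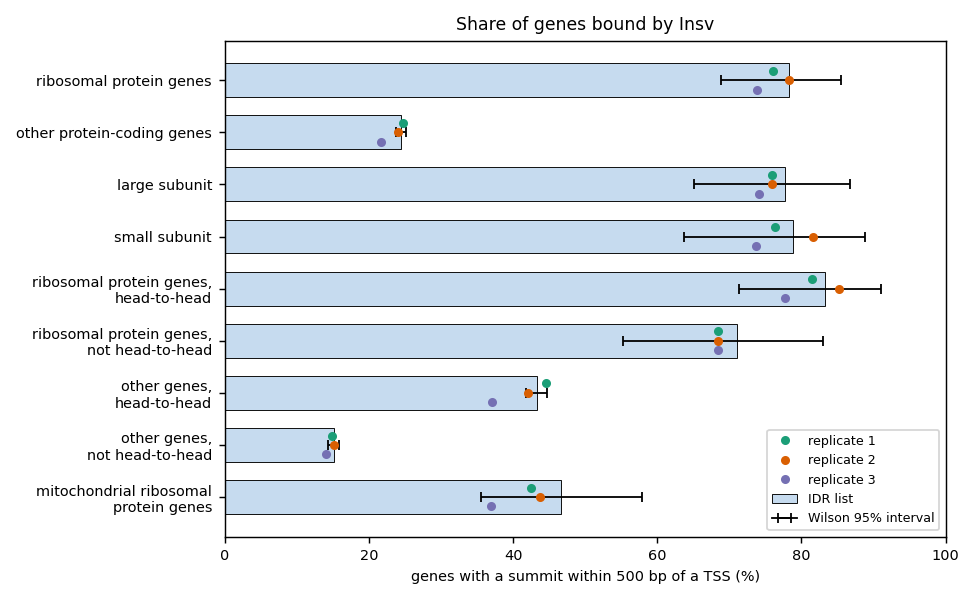
Share of genes (%) with an Insv summit within 500 bp of a TSS, for ribosomal protein genes and for the gene groups they are compared with. Bars give the IDR list with Wilson 95% intervals and points give each replicate's 4753 strongest regions; the ribosomal protein genes stand at 78.3% and other protein-coding genes at 24.4%, and both subunits lie within each other's intervals.

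The summits sat close to the start of transcription. Positions are given in bp from the nearest annotated TSS of the gene, negative upstream, for the strongest summit in reach. The median was -37 bp over the 72 bound ribosomal protein genes (interquartile range -68 to -9), against -104 bp over the 3384 other bound genes. In the replicates it was -40, -36 and -25.5 bp for ribosomal protein genes, and -111, -101 and -94 bp for other genes, with no overlap between the groups. Of the 72 summits, 56 lay upstream, 15 downstream and 1, at RpL37A, on the TSS itself. Within 100 bp of a TSS lay 60 of the 72 (83.3%), against 43.0% for other bound genes, and within 50 bp lay 45 (62.5%), against 24.3%. The share within 100 bp averaged 83.8% ± 2.89 over the replicates for ribosomal protein genes, against 42.6% ± 1.09 for other genes (mean difference 41.2 ± 3.97 percentage points, exact permutation p = 0.25, the smallest possible). With only the canonical TSS of each gene, a setting added after the data were seen, the share was 76.4% for ribosomal protein genes, against 1219 of 3050 other genes. Bound ribosomal protein genes had on average 1.78 annotated TSSs each and other bound genes 1.72.

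The 6 summits nearest to a TSS belonged to RpL37A at 0 bp, RpL36 and RpS19a at 2 bp, RpS30 at 3 bp, RpS15Aa at -7 bp and RpS27 at 7 bp. The farthest belonged to RpL8 at -452 bp, RpLP2 at -241 bp and RpL24-like at -206 bp. RpLP2 encodes a protein of the acidic stalk that recruits elongation factors, and it kept its distance in each replicate, at -241, -285 and -271 bp. RpL24-like varied more, at -142, -193 and -75 bp. Over the 72 genes, the SD of the summit position between the 3 replicates had a median of 18 bp (interquartile range 12.2 to 32.4) and was at most 50 bp for 63 genes. Of the 72 genes, 12 had 2 summits in reach, among them RpLP2 at -241 and -34 bp. No such count is given for other bound genes. Large-subunit genes had a median position of -45.5 bp and small-subunit genes of -31.5 bp, and the difference had the same sign in each replicate (-8, -10 and -18 bp, exact permutation p = 0.25).

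**Figure D2:**
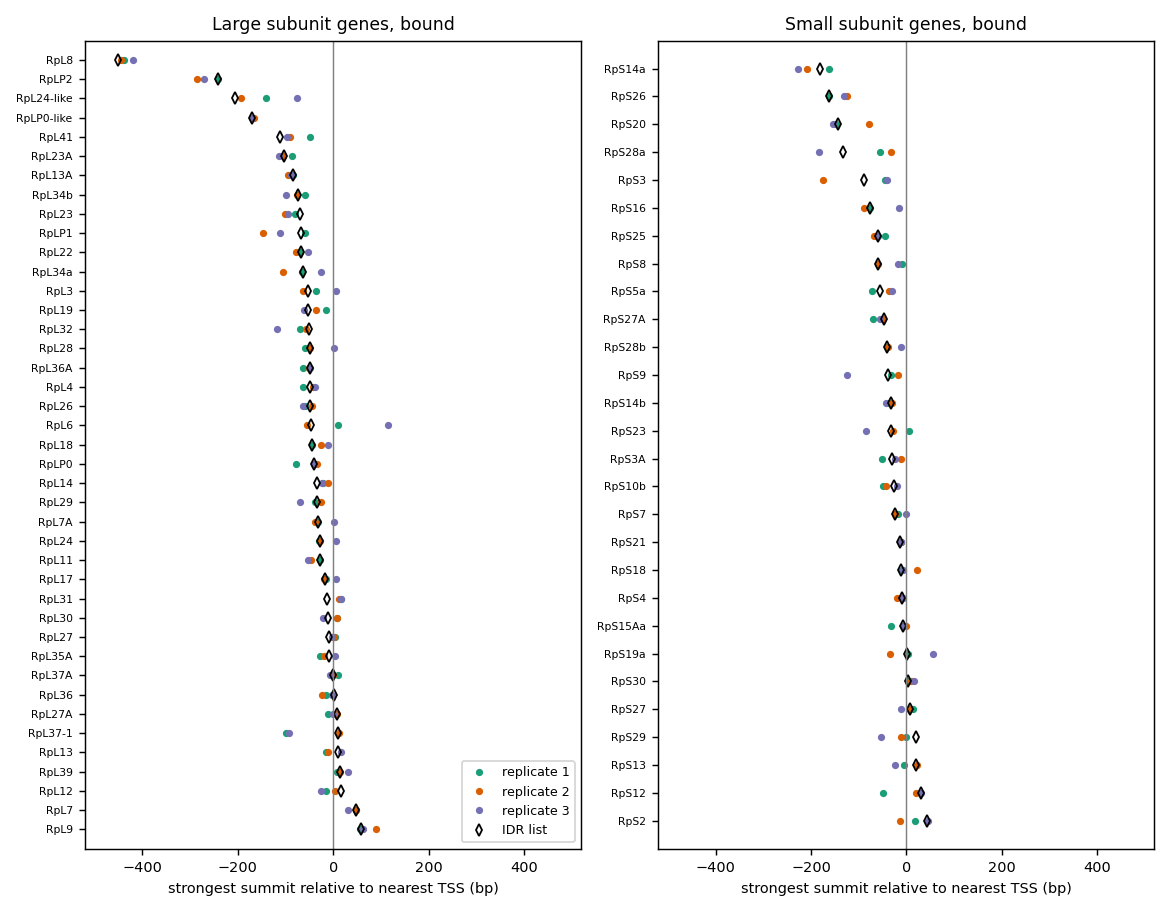
Position of the strongest summit relative to the nearest TSS (bp, negative upstream) for bound ribosomal protein genes, large subunit on the left and small subunit on the right, ordered by position in the IDR list. Diamonds give the IDR list and points the 3 replicates; most genes lie between -100 and 50 bp, and RpL8 stands apart at -452 bp in the IDR list.

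The peaks of ribosomal protein genes were also short. Their median length was 368 bp, against 510 bp for other bound genes. The length of 510 bp was the most frequent one in the list, held by 2528 of the 4753 peaks, and 44 of the 72 ribosomal protein gene peaks (61.1%) were shorter, against 24.1% for other bound genes. What sets the length was not tested.

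By strength, most of these peaks stood in the upper part of the list without reaching its top. A rank percentile of 100 marks the strongest peak. The median percentile in the IDR list was 69.6 for ribosomal protein genes (median rank 1447, range 27 to 4247), against 51.6 for other bound genes. In each replicate's strongest regions it was 77.6, 65.7 and 62.8 for ribosomal protein genes (68.7 ± 7.86, SD, n = 3), against 54.6, 49.9 and 50.4 for other bound genes (51.6 ± 2.58). The groups did not overlap, and the difference averaged 17.1 ± 5.44 points (exact permutation p = 0.25, two-sided). In the stronger 50% of the list lay 57 of the 72 (79.2%), against 51.7% for other bound genes. In the strongest 10% lay 3 of the 72 (4.17%), against 10.6%.

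RpL26 (FBgn0036825), whose protein sits by the exit of the peptide tunnel, had the strongest summit of the group. The summit lay at position 18898827 on 3L, 48 bp upstream of the TSS, and ranked 27 of 4753. It ranked 25 in replicate 1, 27 in replicate 2 and 30 in replicate 3, each a percentile of 99.9 among the 30000 regions of the replicate's list. RpS26 (FBgn0261597), a small-subunit protein near the channel where mRNA leaves, came next at rank 110, with its summit at 18443440 on 2L and at -163 bp. Its ranks were 84, 126 and 133 in replicates 1 to 3. RpL8 (FBgn0261602), which lies by the peptidyl transferase centre, followed at rank 303. It had summits at -452 and -192 bp, and the first of these carried the Insv core shown above. That summit was also in reach of msn, which starts 916 bp from RpL8 on the opposite strand. The ranks of RpL8 in the replicates were 421, 226 and 310. The next 4 were RpL34b at rank 580, RpL41, the smallest ribosomal protein, at 581, RpS27 at 588 and RpL7 at 627. These 4 had percentiles between 96.3 and 98.8 in every replicate.

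At the weak end, RpS30 ranked 4247, RpL12, a protein at the base of the stalk, ranked 4228 and RpL24-like ranked 3884. All 72 bound genes had a region in reach in the full list of each replicate, and their mean percentile there ran from 82.6 to 99.9. The IDR list was made from these lists, so bound genes stand high in them by construction. The counts that follow are not given for other bound genes. Among the strongest regions, 63 of the 72 were found in all 3 replicates, 8 in 2, and RpL12 in replicate 1 alone, where it ranked 2253, against 8438 in replicate 2 and 4984 in replicate 3. Some genes varied widely. RpS5a had percentiles of 96.8, 85.7 and 68.6 in replicates 1, 2 and 3, and RpL39 had 94.0, 87.1 and 71.5. RpS9 was lowest in replicate 1, with 74.5, 91.8 and 92.9. Large-subunit genes had a higher median percentile than small-subunit genes, 76.7 against 60.8. In the replicates the difference was 7.01, 23.6 and 15.0 points (mean 15.2 ± 8.30, exact permutation p = 0.25).

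**Figure D3:**
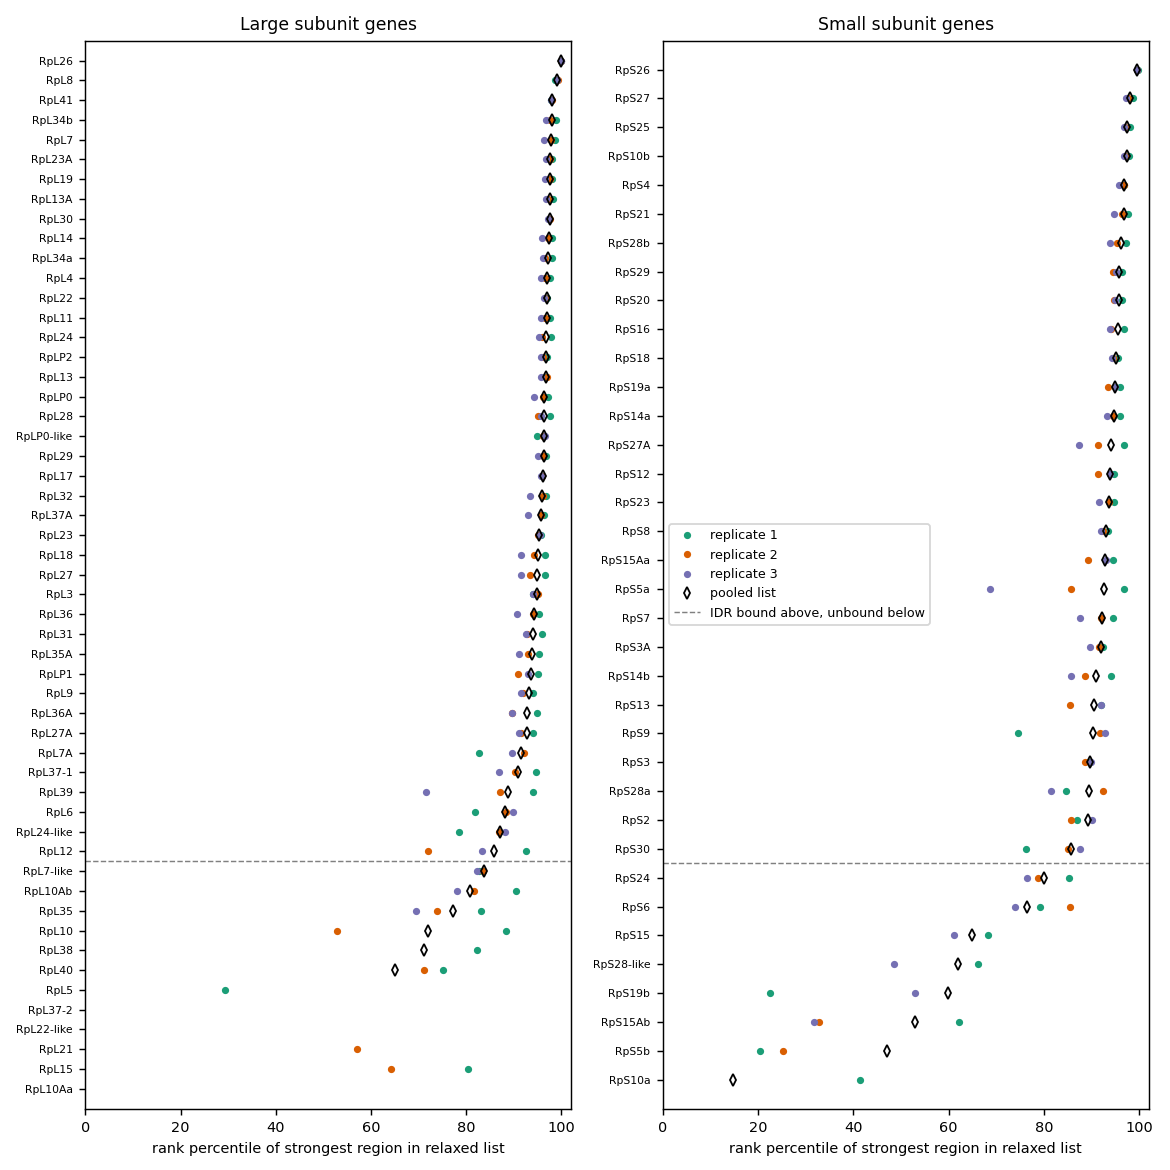
Rank percentile of the strongest region within 500 bp of a TSS in the full list of each replicate (points) and in the pooled list (diamonds), for ribosomal protein genes; genes below the dashed line were unbound in the IDR list, and a gene without a mark had no region. Most points of bound genes lie above a percentile of 80, and the unbound genes RpL7-like, RpL10Ab and RpS24 come next by pooled percentile.

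Many ribosomal protein genes share their upstream DNA with a neighbour that is transcribed away from them. A head-to-head pair was a protein-coding gene on the opposite strand with at most 1000 bp between the outermost starts. Of the 92 ribosomal protein genes, 54 (58.7%) stood in such a pair, against 33.2% of other protein-coding genes. Bound were 45 of the 54 in pairs (83.3%) and 27 of the 38 outside pairs (71.1%). Over all protein-coding genes the shares were 43.7% in pairs and 15.3% outside. The difference within ribosomal protein genes was 13.1, 16.8 and 9.36 percentage points in replicates 1, 2 and 3 (mean 13.1 ± 3.70, exact permutation p = 0.25). Among other genes it was 29.7, 27.1 and 23.1 points, larger in every replicate. The difference between these differences averaged -13.6 ± 3.16 points (exact permutation p = 0.25). Outside pairs, ribosomal protein genes exceeded other genes by 53.8 ± 0.578 percentage points over the replicates, and in pairs by 40.2 ± 3.08.

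A shared promoter also blurs which gene a summit belongs to. Of the 45 bound genes in pairs, 35 had a bound partner and 33 shared their strongest summit with it. Of these 33 summits, 29 were nearer to the ribosomal protein gene. A summit between close starts can be in reach of both genes, so sharing follows in part from the reach allowed. The same counts are not given for other bound genes in pairs, so these do not set ribosomal protein genes apart. Over all 72 bound genes, 67 strongest summits were nearest to the TSS of the ribosomal protein gene itself, with RpS27A tied with Ip259. Among the exceptions were RpL24-like, nearer to CG5276, RpL41, nearer to the sodium channel gene NaCP60E, RpLP0-like, nearer to 14-3-3zeta, and RpS28a, nearer to the Wnt pathway gene Axn. The count of nearest summits is not given for other bound genes. When a peak counted only for the gene with the nearest TSS, 72.8% of ribosomal protein genes were bound, against 78.3% without that rule. Over all protein-coding genes these shares were 18.4% and 24.8%. Another protein-coding gene was in reach of the summit at 35 of the 72, against 58.9% of other bound genes.

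Of the 54 genes in pairs, 11 started at most 150 bp from their partner, a limit chosen after the values were seen. Both genes were bound in 10 of these 11 pairs, and the exception was RpS15Ab and Lsm10, 36 bp apart, where neither was bound. With starts this close and a reach of 500 bp, a summit at either start nearly always reaches the other. Joint binding thus follows largely from the rule, and no share over all pairs this close is given. The pairs below were likewise picked after their values were seen. RpL13 and Dref, which encodes the factor that binds TATCGATA, start 84 bp apart and share a summit at 9967341 on 2L, rank 986, at 11 bp from the RpL13 TSS. RpL14 lies 127 bp from Nelf-E, a subunit of the complex that pauses RNA polymerase II, and their summit ranked 818. RpL28 lies 381 bp from eIF1, a factor of start codon choice, with a summit of rank 1069. RpL7 and Ripalpha start 30 bp apart, RpS16 and CG4294 78 bp, RpLP0 and CG7130 111 bp, and RpS27 and the nuclear pore gene Nup37 144 bp, and in each of these 4 pairs both genes were bound.

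The TCT initiator was looked for as CTTT with its C within 5 bp of an annotated TSS on the strand of the gene. It was present at 58 of 92 ribosomal protein genes (63.0%, interval 52.8 to 72.2%), against 7.70% of other protein-coding genes. The share depends on how near to the TSS the C must lie. It was 3.26% with the C exactly at a TSS, against 0.81% over all protein-coding genes, and 45.7% within 5 bp of the canonical TSS alone, against 5.72%. Of bound ribosomal protein genes 47 of 72 had it (65.3%), and of unbound ones 11 of 20 (55.0%). Bound were 81.0% of the ribosomal protein genes with CTTT and 73.5% of those without, a difference that averaged 8.72 ± 4.19 percentage points over the replicates (exact permutation p = 0.25). Over all protein-coding genes the bound share was 32.3% with CTTT and 24.1% without. A match is a description of the letters and not a mapped start. Capitals below mark only CTTT with its C within 5 bp of the TSS. The starts of 4 genes picked for a strong or close summit are shown, from 40 bp before to 20 bp after the TSS, on the strand of the gene. All 4 have CTTT, which 34 of the 92 ribosomal protein genes do not. The 4 are RpL8 (chr3L:2587416-2587476, plus strand), RpL13A (chr3R:5624434-5624494, plus strand), RpL23A (chr3L:1668634-1668694, minus strand) and RpL27 (chr3R:25685031-25685091, minus strand).
RpL8: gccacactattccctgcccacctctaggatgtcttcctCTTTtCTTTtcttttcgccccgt
RpL13A: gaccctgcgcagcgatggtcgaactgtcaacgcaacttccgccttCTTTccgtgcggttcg
RpL23A: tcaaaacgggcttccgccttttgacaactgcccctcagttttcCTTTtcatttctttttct
RpL27: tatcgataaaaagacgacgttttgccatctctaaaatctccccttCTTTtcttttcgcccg

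Under the summits, the DREF and BEAF-32 sequences were in a larger share of ribosomal protein gene peaks than of other peaks, and the Insv core was in 1 of 72. Windows of 50 bp to each side of the summit were searched on both strands. The DREF sequence TATCGATA was in 12 of 72 ribosomal protein gene peaks (16.7%), against 4.89% of the peaks at other protein-coding genes and 3.09% of all IDR peaks. Among these were RpL19, RpL26, RpL27, RpL28, RpL34a, RpL36, RpL41, RpS10b, RpS13, RpS25 and RpS29. The shorter BEAF-32 sequence CGATA, which is also part of TATCGATA, was in 35 (48.6%), against 24.2% and 19.5%. The M1BP sequence GGTCACAC was in 7 (9.72%), at RpL27A, RpL30, RpL37A, RpL6, RpLP0, RpS23 and RpS9, against 4.51% and 2.76%. The TATA box TATAAA went the other way, in 4 (5.56%) of the ribosomal protein gene peaks, against 15.6% and 13.9%.

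The Insv core CCAATTGG was in 1 of the 72 peaks, that of RpL8 (1.39%), against 3.41% of the peaks at other genes and 3.47% of all peaks. The degenerate form of the Insv site, the Elba sequence CCAATAAG and the GAGA sequence GAGAGAG were in 0 of the 72, which allows a share of up to 4.17%. In the peaks at other genes they were in 3.88%, 1.47% and 2.32%. CCAATCAG was in 1, again at RpL8, against 2.19%. With 72 windows, these shares rest on few matches, and no match says only that these letters are not in the window.

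In whole promoters, from 250 bp before to 50 bp after the canonical TSS, TATCGATA was in 28 of 92 ribosomal protein genes (30.4%), against 8.95% of all protein-coding promoters. It was in 23 of the 72 bound genes (31.9%) and in 5 of the 20 unbound genes. GGTCACAC was in 13 of 92 (14.1%), against 7.54%, and CGATA in 65 (70.7%), against 47.0%. TATAAA was in 45.7% of ribosomal protein gene promoters, against 45.3% of all promoters. CCAATTGG was in 1 of 92 (1.09%), against 0.975%, and CCAATAAG in 3 (3.26%), also against 0.975%.

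**Figure D4:**
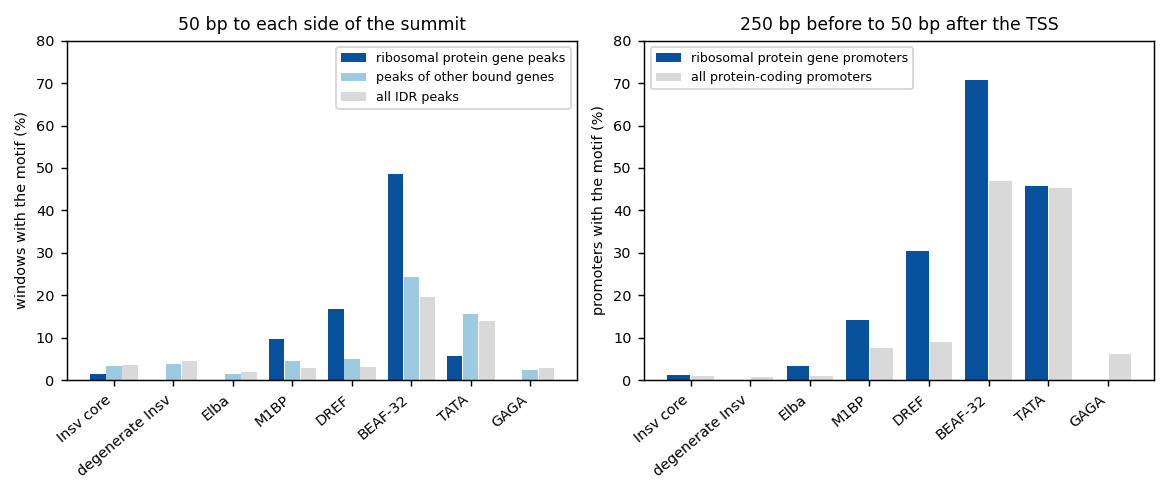
Share of windows (%) that hold each sequence on either strand, around the summit on the left and in the promoter on the right, for ribosomal protein genes beside other peaks or all promoters. DREF and BEAF-32 sequences stand at 16.7% and 48.6% of the ribosomal protein gene peaks, and the Insv core at 1.39%.

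The 20 unbound ribosomal protein genes were 12 of the large and 8 of the small subunit. They were not all without signal. RpL10Aa, RpL22-like and RpL37-2 had no region in reach in any replicate's full list, 4 genes had one in 1 list, 7 in 2 lists and 6 in all 3. In the list called on pooled reads, 14 of the 20 had a region in reach and 11 had one with a q-value below 0.05. Among all 10489 protein-coding genes unbound in the IDR list, 40.6% had a pooled region in reach and 25.2% had one with a q-value below 0.05, and among all protein-coding genes, bound ones included, the share at that q-value was 43.8%. The IDR peaks ended at rank 4753, and RpL7-like lay just outside at pooled rank 4900, followed by RpL10Ab at 5785, RpS24 at 5988, RpL35 at 6816 and RpS6, the target of S6 kinase, at 7074. Just inside lay RpS30 at 4247 and RpL12 at 4228. RpL10, which joins the large subunit late in its assembly, had pooled rank 8416, RpL38 had 8634, RpL40, made as a fusion with ubiquitin, had 10457 and RpS15, with an IDR summit 636 bp from its start, had 10510. RpS28-like followed at 11430, RpS19b at 12032, RpS15Ab at 14142, RpS5b at 15908 and RpS10a at 25601.

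Of these 20 genes, 4 were among the strongest regions of 1 replicate. In replicate 1 these were RpL10Ab at rank 2885, RpL10 at 3516 and RpS24 at 4409, and in replicate 2 RpS6 at 4307. The same count is not given for other unbound genes, so it does not set ribosomal protein genes apart. RpL10 ranked 14142 in replicate 2. RpL5, which carries 5S rRNA into the large subunit, was in the list of replicate 1 alone, at rank 21216, and RpL21 in that of replicate 2 alone, at rank 12892. RpL15 ranked 5882 in replicate 1 and 10783 in replicate 2.

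Part of the unbound genes stood far from any peak. RpL5, RpL10, RpL15, RpL21 and RpL38 were more than 100 kb from the nearest IDR summit, RpL15 by 4388363 bp, RpL5 by 402628, RpL10 by 216578, RpL38 by 186448 and RpL21 by 113577. By definition no bound gene was, and among all protein-coding genes 3.21% were that far. Repeats were common around most of them. Bases that the RefSeq genome marks as repeats made up 29.8% of the DNA within 5 kb of the start of RpL15, 30.6% at RpL21, 28.6% at RpL10, 23.8% at RpL38 and 19.9% at RpL5, against a median of 12.0% over all protein-coding genes. Above 20% stood 6 ribosomal protein genes, of which RpL10, RpL10Aa, RpL15, RpL21 and RpL38 were unbound and RpS3A on chromosome 4 was bound. Of all protein-coding genes above 20%, 16.9% were bound, against 25.7% of the rest. Both descriptions were chosen after the values were seen. Reads in repeats are hard to place, and how the authors treated them is not given in the sources used here. Its part in these genes being unbound was not tested.

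Most families of like-named genes held both bound and unbound copies. By name, 27 of the 92 genes formed 13 families of copies, and 17 of the 27 were bound (63.0%), against 55 of the 65 genes in no family (84.6%). This difference was not tested. All copies were bound in 4 families, RpL24, RpL34, RpLP0 and RpS14, some copies in 8, and none in the RpL10A family. The families take in RpL7-like, RpL24-like and RpLP0-like, which resemble assembly factors. Their coding sequences were 53.1%, 48.7% and 46.0% identical to those of RpL7, RpL24 and RpLP0. The RpL7, RpL24 and RpLP0 families thus rest on the names. In the 8 split families, the unbound copy was RpL7-like, RpL22-like, RpL37-2, RpS5b, RpS10a, RpS15Ab, RpS19b or RpS28-like. Of these, RpL22-like, RpS5b, RpS10a and RpS19b are known as copies enriched in gonads or germ cells.

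RpS19a ranked 1537 with percentiles of 93.5 to 96.1 in the replicates, and RpS19b had 22.5 in replicate 1, 53.0 in replicate 3 and no region in replicate 2. RpS10b ranked 791 with 97.8, 97.1 and 96.8, and RpS10a had 41.3 in replicate 1 and no region in the others. RpS5a, the most variable bound copy, ranked 2195, and RpS5b had 20.5 in replicate 1, 25.3 in replicate 2 and no region in replicate 3. RpL7 ranked 627, and RpL7-like stayed between 82.2 and 83.6 in the replicates. RpL22 ranked 942, RpL37-1 2765 and RpS28b 1137, while their copies RpL22-like and RpL37-2 had no region and RpS28-like had 66.2 in replicate 1 and 48.6 in replicate 3. In none of the 8 split families did the percentiles of a bound and an unbound copy overlap, where both had a region, but bound state and percentile rest on the same signal.

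The coding sequences of RpS15Aa and RpS15Ab were 98.2% identical, and those of RpS14a and RpS14b 97.8%, the closest 2 pairs. How reads that match both copies were treated is not given, so these 2 pairs are uncertain. The IDR summits of RpS14a and RpS14b lay upstream of their annotated starts. The RpS15Aa summit at 13337645 lay upstream of the nearer of its 2 starts, at 13337638, and downstream of the outer one, at 13337705. Identity outside the coding sequence is not given. The part of shared reads in the bound state was not tested. RpS15Aa ranked 2142 at -7 bp and RpS15Ab had percentiles of 62.1, 32.8 and 31.8. RpS15Ab has a single exon, as have RpL10Aa, RpL37-2 and RpS10a, also unbound, and RpLP2 and RpS28a, both bound. So 2 of the 6 single-exon genes and 70 of the 86 genes with more exons were bound, against 12.1% and 27.2% over all protein-coding genes.

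The starts of 2 split pairs are shown because 1 pair differs in CTTT near the TSS and the other does not. As above, capitals mark only CTTT with its C within 5 bp of the TSS. RpS19a (chrX:16637854-16637914, plus strand), bound, has CTTT within 5 bp of the TSS. RpS19b (chr3R:23933510-23933570, minus strand), unbound, has it only farther upstream. RpS5a (chrX:17148244-17148304, minus strand), bound, and RpS5b (chr3R:14901543-14901603, minus strand), unbound, both have it within 5 bp.
RpS19a: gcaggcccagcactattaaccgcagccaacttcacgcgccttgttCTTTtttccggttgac
RpS19b: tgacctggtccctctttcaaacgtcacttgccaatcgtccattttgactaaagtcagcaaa
RpS5a: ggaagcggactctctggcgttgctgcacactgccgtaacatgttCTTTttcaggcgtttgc
RpS5b: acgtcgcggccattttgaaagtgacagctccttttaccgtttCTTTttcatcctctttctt

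**Figure D5:**
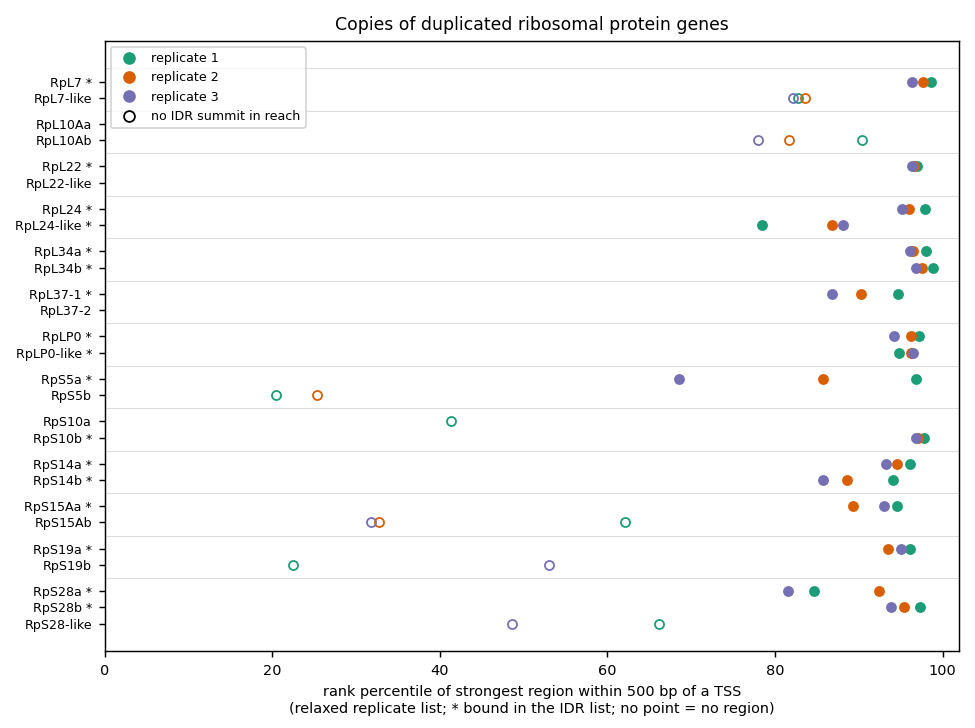
Rank percentile of the strongest region within 500 bp of a TSS in the full list of each replicate, for the genes of the 13 families grouped by name. Filled points and an asterisk mark genes bound in the IDR list, and open points mark genes that were not; RpS19b lies at 22.5 and 53.0 where RpS19a lies above 93.

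Ribosomal protein genes often hold small nucleolar RNA (snoRNA) genes inside them, which guide the modification of ribosomal RNA. This was true of 28 of the 92 (30.4%), against 0.404% of other protein-coding genes. Bound were 24 of these 28, against 32 of the 56 other protein-coding genes that hold snoRNA genes (57.1%), and 66.7% over all genes that hold them. This difference was not tested. RpS5a held 14 and RpS7 held 7.

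Among other genes of translation, mitochondrial ribosomal protein genes had a lower share bound than the cytosolic ones in every replicate. Of the 73 mitochondrial ribosomal protein genes, whose products build the ribosome of that organelle, 34 were bound (46.6%, interval 35.6 to 57.9%). In the replicates, cytosolic genes exceeded mitochondrial ones by 33.6, 34.4 and 36.9 percentage points (mean 35.0 ± 1.72, exact permutation p = 0.25). Of the mitochondrial genes, 56 of 73 stood in head-to-head pairs, against 54 of 92 cytosolic ones. In pairs 29 of the 56 were bound (51.8%) and outside pairs 5 of 17 (29.4%), against 83.3% and 71.1% of cytosolic genes. Summit positions of mitochondrial genes were not split by pairing. The mitochondrial summits were farther out, with a median of -124 bp, against -37 bp for the cytosolic genes, and 44.1% of them lay within 100 bp, against 83.3%. Their median percentile was 49.4, against 69.6. Even so, the strongest of them stood higher than any cytosolic gene, mRpL13 at rank 12, followed by mRpS21 at 160, mRpL40 at 235 and mRpL41 at 428.

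The cytosolic ribosomal proteins outside the naming rule were both bound, Rack1, a scaffold on the small subunit, at rank 1477 and -29 bp, and sta at rank 1941 and -21 bp. Of 8 elongation factor genes 5 were bound, eEF1gamma at rank 599, eEF2 at 1307, eEF1alpha1 at 3334, eEF5 at 3869 and eEF1beta at 4273, and eEF1alpha2, eEF1delta and eEFSec were not. Among the strongest regions the share of these 8 genes was 62.5% in replicate 1, 37.5% in replicate 2 and 50% in replicate 3, beside 24.8% of all protein-coding genes in the IDR list. Of 27 genes listed for small nucleolar ribonucleoproteins and ribosomal RNA processing 18 were bound (66.7%), the strongest being Ns2 at rank 833, pit at 864, Rrp1 at 1237 and Surf6 at 1423. In each replicate the share was 63.0%. The list holds Rrp1, a DNA repair enzyme, and Brr2, a helicase of the spliceosome, which do not do what its name says. Of 9 growth regulators 6 were bound, led by the translational repressor brat at rank 83, foxo at 1590, Akt at 2111 and Mnt at 2190, and Myc, S6k and raptor were not, with a share of 66.7%, 77.8% and 66.7% in replicates 1, 2 and 3. The gene insv itself had a summit at 2577288 on 2L, rank 57, which is above all ribosomal protein genes but RpL26.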

How the data were processed

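Insv-GFP ChIP-seq of 3 biological replicates was deposited as region lists on dm6. Per the file headers, the authors called a relaxed list for each replicate and for the pooled reads, each against a control alignment, and an IDR list from these. The relaxed lists hold 30000 regions each. The deposited signal value has no stated scale, so it served to rank regions within a list and for nothing else. The authors' −log10 q-value column gave the number of regions at a q-value under 0.05, which was 8416, 13955 and 12195 in replicates 1, 2 and 3. The deposited summit is another column, an offset in bp. The aligner, peak caller and IDR threshold are not stated in these sources, and lists on dm3 were not used here. Ranks can depend on the control and on depth, neither of which could be examined.

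Genes and TSSs came from Ensembl release 115 (BDGP 6.54), positions count from 1, and sequence came from the RefSeq genome of dm6. Shares were compared between gene groups within each replicate, using its strongest 4753 regions, by an exact sign-flip permutation test over replicates, two-sided. Genes are not replicates, so no test was made over genes. The assignment of summits to TSSs was tested on simulated data. The alternatives were other TSS distances, TSS sets, peak assignments, thresholds, lists and pair limits, and leaving out each replicate. Coding identity is that of a global alignment.

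The members, gene lists and motifs were chosen with earlier results of these data known. The rule named in full the 8 strongest members, all unbound members, split families, the 6 closest and 4 farthest summits, and, from the other lists, up to 4 bound genes by rank, with Rack1, sta and all elongation factors; other members named for their variation between replicates or position in a pair were chosen after their values were seen. Some members are not reported here by name and are not drawn in the figures, but stand in all counts. Tor was not matched to a unique gene and was not analysed here. Software was Python 3.11.15, Biopython 1.88, matplotlib 3.10.9, scipy 1.17.1, pandas 2.3.3 and numpy 2.4.6.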

Additional observations from a re-analysis of the deposited data

How the results depend on the processing

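The share of ribosomal protein genes bound was 78.3%, against 24.8% over all protein-coding genes, whose share follows in brackets. It was 72.8% when a peak counted only for the gene with the nearest TSS (18.4%). It was 62.0% with the stronger 50% of the IDR list (13.0%) and 90.2% with pooled regions at a q-value below 0.05 (43.8%). Leaving out a replicate gave 68.5% without replicate 2 (18.1%) to 73.9% without replicate 1 (19.1%). Both shares were lower with any replicate left out. The share of ribosomal protein genes stayed within the spread between replicates under the other 4 alternatives. The difference between large and small subunits, -1.17 percentage points, was -5.95 with the nearest TSS alone and had the opposite sign at 11.4 with the stronger 50% and 1.46 with any overlap of the region with the TSS. With a replicate left out it ran from -0.682 to 0.39, with the opposite sign at 0.39 without replicate 1 and 0.0975 without replicate 2. The difference between genes in head-to-head pairs and others, 12.3 points, was 7.5 with the nearest TSS alone, 24.9 with the stronger 50%, 21.3 with a pair limit of 500 bp and 9.36 to 21.7 with a replicate left out, the highest without replicate 3. The median position, -37 bp, was -47.5 bp from the canonical TSS, -27.0 bp for genes with no other gene in reach and -40.0 to -35.0 bp with a replicate left out. The share of summits within 100 bp, 83.3%, was 76.4% from the canonical TSS. The median percentile, 69.6, ran from 72.4 to 73.8 with a replicate left out. CTTT at the TSS, 63.0%, was 82.6% within 10 bp (14.9% over all protein-coding genes), 3.26% with the C exactly at a TSS (0.81%) and 45.7% at the canonical TSS (5.72%). The cause of these shifts was not tested. The IDR list draws on all 3 replicates, so leaving one out here meant keeping the 3424 to 3728 IDR peaks that both others held among their strongest regions. Ranking by q-value gave no value, because all 4753 IDR peaks share 1 q-value. No paired analysis was possible because the samples form 1 group, so replicate numbers pair no samples; gene groups were compared within each replicate throughout. Depth is unknown, so a gene listed without a region cannot be told from a gene below detection.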
